A study of Mus musculus with 28 samples.

Results

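MHC class II and its loading genes were followed by RNA-seq through the conversion of mouse Pre-B cells into macrophages. The 10 genes, chosen by name from a table of 55450 genes, are H2-Aa, H2-Ab1, H2-Eb1, H2-DMa, H2-DMb1, H2-DMb2, H2-Oa, H2-Ob, Cd74 and Ciita. All 12 libraries came from C10, a HAFTL derived Pre-B line carrying a CEBPalpha-ER transgene, in which rat C/EBPα is fused to the estrogen receptor, so that β-estradiol sends it to the nucleus. The 0h cells were uninduced and also carried the transgene. The 1h, 12h and 48h cells received 100 nM β-estradiol with 10 nM IL-3 and CSF-1, and each time point had 3 biological replicates. Promoter Capture Hi-C (PCHi-C), which lists the DNA fragments that contact captured promoter fragments, was available as 1 list per time point.

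MHC class II molecules are surface proteins that show peptides taken up from outside the cell to CD4+ T cells, and they are characteristic of dendritic cells, B cells and activated macrophages. An α and a β chain pair in the endoplasmic reticulum with the invariant chain (Cd74), which fills the peptide groove and directs the complex to endosomes. There the invariant chain is cut down to a small fragment, which H2-DM exchanges for peptide, while H2-O restrains H2-DM. The transactivator Ciita has no DNA-binding domain of its own and acts through RFX, CREB and NF-Y proteins that sit on the X and Y boxes of class II promoters.

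The promoter sequences of 7 of the 10 genes were found in RefSeq (build GRCm38.p6, 250 bases before to 50 after the start). H2-Ab1, Cd74 and Ciita had no entry. The search was for the Y box core GATTGG, preceded on the gene's strand by AAC (part of the X1 box). A gap of 20 to 30 bases was allowed between them. The pair was present upstream of the start in 6 of the 7. This pair, searched on both strands, was found in 1.87% of all 32851 promoters, and GATTGG alone in 14.6%. The letters and the gap were chosen after these promoters had been read, so the share is a description. H2-DMa, with 2 entries, had the pair in neither. The 4 stretches that overlap no annotated exon are shown from 5′ to 3′ on the gene's strand, to let the common layout be seen, with AAC and GATTGG in capitals.
H2-Aa (chr17:34287857-34287914, minus strand, gap of 27 bases): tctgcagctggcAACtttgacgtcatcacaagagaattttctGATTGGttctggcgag
H2-Eb1 (chr17:34305766-34305822, plus strand, gap of 26 bases): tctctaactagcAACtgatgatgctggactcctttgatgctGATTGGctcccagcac
H2-DMb2 (chr17:34145116-34145173, plus strand, gap of 27 bases): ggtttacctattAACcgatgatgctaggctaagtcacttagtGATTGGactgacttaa
H2-Ob (chr17:34238808-34238862, plus strand, gap of 24 bases): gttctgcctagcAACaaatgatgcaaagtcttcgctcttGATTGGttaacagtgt
In these genes GATTGG began 49, 60, 91 and 58 bases before the RefSeq start, in the order shown.

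RNA levels are given as TPM (the abundance of a transcript per unit of length, relative to all RNA in the library). TPM keep no record of depth, and the sequencing depth for which the paper points to its supplement was not used here. Genes with a mean of at least 0.1 TPM were tested with limma on log2(TPM + 0.1), all 12 libraries in 1 model, and a gene was called when its Benjamini-Hochberg adjusted p was under 0.05. Of the 10 genes, 8 passed this filter. H2-Aa and Ciita did not. The p-values compare cultures of 1 line, and in bulk RNA a change in the share of cells that express a gene cannot be told apart from a change in RNA per cell. The label of the cells was followed by its markers. The summed TPM of 10 Pre-B markers ranged from 250 to 266 before induction and from 26.7 to 38.8 by 48h, and that of 8 macrophage markers from 3.34 to 4.61 and from 190 to 269, although Adgre1 (F4/80) reached no more than 0.29 TPM in any library. The 7 dendritic cell markers summed to at most 1.80 TPM in any library, with Cd209a at 0 in all 12, the 5 T cell markers to at most 0.18 and the 4 stromal markers to at most 0.34. The 5 mature B markers reached a summed TPM of 14.6 in 0h cells and of at most 1.73 at 48h. Among the dendritic cell markers Itgax, which macrophages also use, was listed at 0 in all libraries of 0h and 1h and measured 0.21, 0.88 and 0.55 TPM at 12h and 1.48, 0.52 and 0.92 at 48h. It was called higher than at 0h at both times (adjusted p = 0.00184 and 0.000124, limma), and Batf3 was called higher at 12h alone (2.78, adjusted p = 0.000516, limma). The part of these shifts in the results was not tested. The 8 H2 genes lie together on chromosome 17, from 34092340 (the start of H2-Oa) to 34316674 (the end of H2-Eb1; GRCm38), and all but H2-Aa are on the plus strand.

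By 48h Cd74 had become one of the most abundant transcripts, while the chains it accompanies stayed low. Cd74 RNA measured 0, 0.52 and 0.38 TPM in the 0h libraries, 2.28, 1.84 and 2.33 in those of 1h, 8.18, 8.25 and 10.1 in those of 12h and 131, 159 and 168 in the 48h libraries. No library of a later time point overlapped with one of an earlier time point. The mean rose from 0.300 ± 0.269 (SD, n = 3) to 153 ± 19.3 (SD, n = 3) TPM, and its place among all genes from 11227 to 91. The ratio of these means, 509, depends on the low 0h values: it was 339, 803 and 587 without 0h replicate 1, 2 and 3, and 483 to 545 without 1 of the 48h libraries. On the fitted scale the log2 fold change against 0h was 2.85 at 1h (limma, adjusted p = 0.00300, with a standard error of 0.52), 4.84 at 12h (adjusted p = 3.93e-05, limma) and 8.94 at 48h (adjusted p = 1.21e-07, limma). The step from 12h to 48h was 4.09 (adjusted p = 0.000128, limma). Cd74 is at chromosome 18, 60803848 to 60812652 (GRCm38, plus strand), and 0.715% of its exonic bases are shared with Mir5107.

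The classical chains bind the peptide itself. H2-Ab1, the β chain of I-A, measured 0.48, 0.34 and 0.26 TPM in the 0h libraries, 1.44, 0.69 and 0.48 in those of 1h, 0.75, 0.52 and 1.45 in those of 12h and 1.75, 1.12 and 1.22 in the 48h libraries. All libraries at 12h and 48h lay above all those at 0h, whereas the lowest 1h library equalled the highest 0h library. Its log2 fold change at 48h was 1.67 (limma, adjusted p = 0.00697, with a standard error of 0.42), and at 1h (0.98) and 12h (1.05) it missed the threshold (limma, adjusted p = 0.108 and 0.0830). H2-Eb1, the β chain of I-E, measured 0.16, 0 and 0.16 TPM in the 0h libraries, 0.41, 0.43 and 0.35 in those of 1h, 0 in all 3 of 12h and 0.23, 0.39 and 0.40 in the 48h libraries. It was higher than at 0h at 1h (log2 fold change 1.39, adjusted p = 0.0327, limma) and at 48h (1.19, adjusted p = 0.0381, limma). At 12h, where it was listed at 0, it was not called against 0h (adjusted p = 0.124, limma). The 48h call was lost without 0h replicate 2 (adjusted p = 0.148, limma), 48h replicate 2 (0.107), 48h replicate 3 (0.104) or either 1h replicate 1 or 2 (0.0502 each), and when only the 6 libraries compared were fitted (0.0998). The 1h call was lost without 0h replicate 2 (0.107) or any 1h library (0.0553 to 0.0909). It was also lost when only the 6 libraries compared were fitted (adjusted p = 0.0725, limma). With 0.01 added in place of 0.1 both calls were lost (adjusted p = 0.0810 at 1h, limma). Of 20 alternatives 12 kept the call at 1h, and 12 of 20 kept it at 48h. H2-Aa, the α chain that pairs with H2-Ab1, was listed at 0 in 9 of the 12 libraries. The other 3 values were 0.14 and 0.05 TPM at 1h and 0.09 TPM at 48h. Housekeeping genes such as Actb and Gapdh had TPM above 0 in every library. Their values do not show how well RNA near 0 TPM was detected.

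Set against the chains on the per-length TPM scale, Cd74 rose more. The summed TPM of H2-Aa, H2-Ab1 and H2-Eb1 went from 0.467 ± 0.155 (SD, n = 3) before induction to 1.73 ± 0.214 (SD, n = 3) by 48h. The ratio of Cd74 to this sum was 0, 1.53 and 0.905 in the 0h libraries, 1.15, 1.64 and 2.65 in those of 1h, 10.9, 15.9 and 6.97 in those of 12h and 66.2, 99.1 and 104 in the 48h libraries. Libraries of 12h and of 48h overlapped with no other time point in this ratio, while those of 0h and 1h overlapped with each other. Being a ratio within a library, it does not move when a library is rescaled. The chain genes are known to vary between mouse strains, and reads were mapped to the reference alleles while the strain of C10 is not given in the sources used here. Whether reads of the chains were lost in mapping, which would raise this ratio, was not tested.

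**Figure D1:**
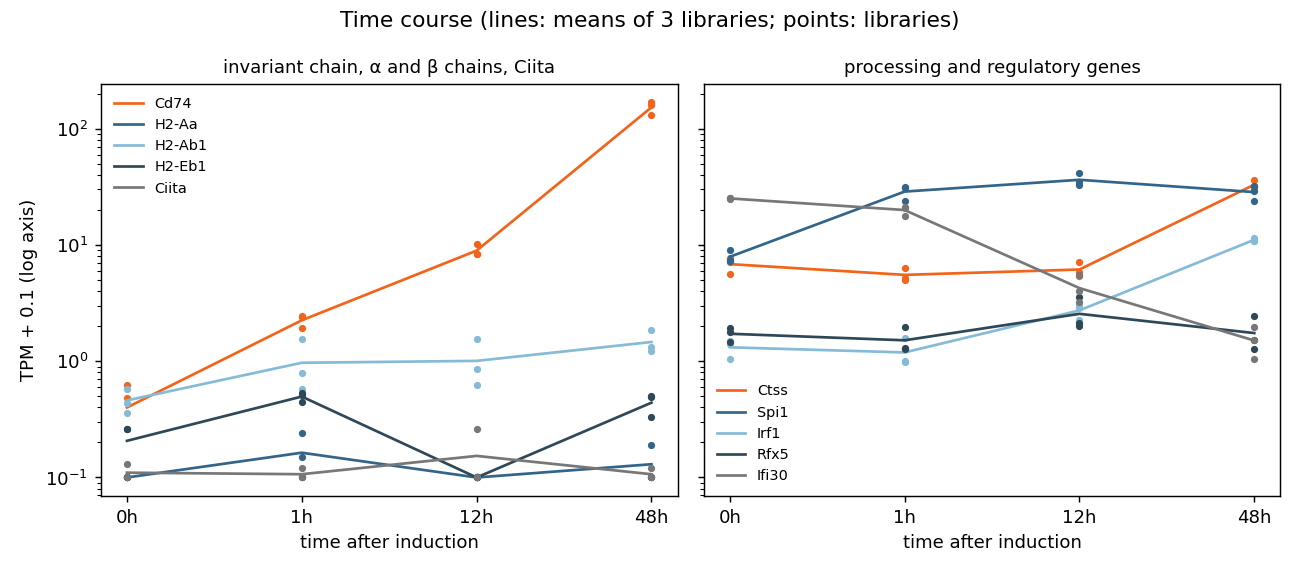
TPM + 0.1 on a log axis against time after induction, with lines through the means of 3 libraries and points for single libraries, for Cd74, the classical chains and Ciita (left) and for 5 processing and regulatory genes (right). Cd74 reached 131 to 168 TPM at 48h, where no classical chain exceeded 1.75 TPM.

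Ciita, the transactivator, was close to 0 throughout. It was listed at 0 in 8 of 12 libraries, and the other 4, 1 per time point, had 0.03, 0.02, 0.16 and 0.02 TPM in order of time. The 48h libraries, with the highest Cd74, had 0.02, 0 and 0 TPM of Ciita. It was not tested because its mean was under the filter. Ciita is at chromosome 16, 10480059 to 10528418 (plus strand).

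H2-DM, the peptide exchange factor, consists of an α chain (H2-DMa) and a β chain (H2-DMb1 or H2-DMb2), and RNA of all these genes was higher at 48h than at 0h. H2-DMa measured 0.61, 0.80 and 0.87 TPM in the 0h libraries, 1.30, 1.88 and 1.60 in those of 1h, 2.61, 2.00 and 3.29 in those of 12h and 6.33, 3.17 and 6.07 in the 48h libraries. No library after induction overlapped with the 0h libraries, and those of 12h and 48h overlapped. The log2 fold change against 0h was 0.98 at 1h (adjusted p = 0.0328, limma), 1.65 at 12h (adjusted p = 0.00153, limma) and 2.57 at 48h (limma, adjusted p = 2.62e-05, with a standard error of 0.30). Leaving out any of the 6 libraries of 0h and 1h ended the 1h call (adjusted p from 0.0504 to 0.110, limma). The annotated H2-DMa gene shares 10.4% of its exonic bases with Brd2, and since the library kit does not mark strand, their reads cannot be told apart there. Brd2 was itself higher at 1h, with a mean of 40.7 TPM against 23.4 at 0h (0.80, adjusted p = 0.00633, limma), where H2-DMa was called as well. At 48h, with a mean of 26.8 TPM, its log2 fold change of 0.19 missed the threshold (limma, adjusted p = 0.389). After median-of-ratios scaling between libraries, described with the counts, Brd2 was not called at 1h (0.14, adjusted p = 0.579, limma) and was called higher at 48h (0.61, adjusted p = 0.00389, limma). The part of Brd2 reads in the values of H2-DMa was not tested.

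H2-DMb2 measured 0.62, 0.43 and 0.48 TPM in the 0h libraries, 1.19, 1.27 and 1.26 in those of 1h, 1.57, 2.13 and 2.02 in those of 12h and 2.21, 2.27 and 2.31 in the 48h libraries. Each time point lay above the previous one with no overlap. Its log2 fold change was 1.15 at 1h (adjusted p = 0.00271, limma), 1.72 at 12h (adjusted p = 8.45e-05, limma) and 1.97 at 48h (limma, adjusted p = 1.16e-05, with a standard error of 0.20). H2-DMb1 measured 1.27, 1.74 and 1.42 TPM in the 0h libraries, 0.68, 1.28 and 1.00 in those of 1h, 1.70, 2.28 and 2.61 in those of 12h and 3.83, 2.14 and 4.93 in the 48h libraries. It overlapped with 0h at 1h and 12h and stood above it at 48h, where its log2 fold change was 1.18 (limma, adjusted p = 0.0110, with a standard error of 0.32). Both β genes are nearly alike in part: of the 100-base windows of their transcripts, 11.3% of those of H2-DMb1 and 10.3% of those of H2-DMb2 occur in the other gene, so their separate values are uncertain to that extent. No other pair among the 10 genes shared such a window.

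H2-O, the inhibitor of H2-DM, is known mainly from B cells and thymic epithelium. Its β chain H2-Ob measured 1.69, 1.09 and 1.77 TPM in the 0h libraries, 0.72, 1.71 and 1.26 in those of 1h, 0.99, 1.31 and 1.42 in those of 12h and 2.32, 3.96 and 3.98 in the 48h libraries. It overlapped with 0h until 12h and was higher at 48h, with a log2 fold change of 1.11 against 0h (limma, adjusted p = 0.0176, with a standard error of 0.33) and of 1.37 against 12h (adjusted p = 0.00752, limma). The call against 0h was lost without 0h replicate 2 (adjusted p = 0.0736, limma), 48h replicate 2 (0.0655) or 48h replicate 3 (0.0589). The α chain H2-Oa measured 0.31, 0.88 and 0.76 TPM in the 0h libraries, 0.58, 0.25 and 0.54 in those of 1h, 0.08, 0.35 and 0.73 in those of 12h and 0.42, 0.33 and 0.39 in the 48h libraries. All time points overlapped with 0h, and the log2 fold change at 48h was -0.55 (limma, adjusted p = 0.446, with a standard error of 0.53). The H2-Oa gene shares 22.8% of its exonic bases with BC051537.

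**Figure D2:**
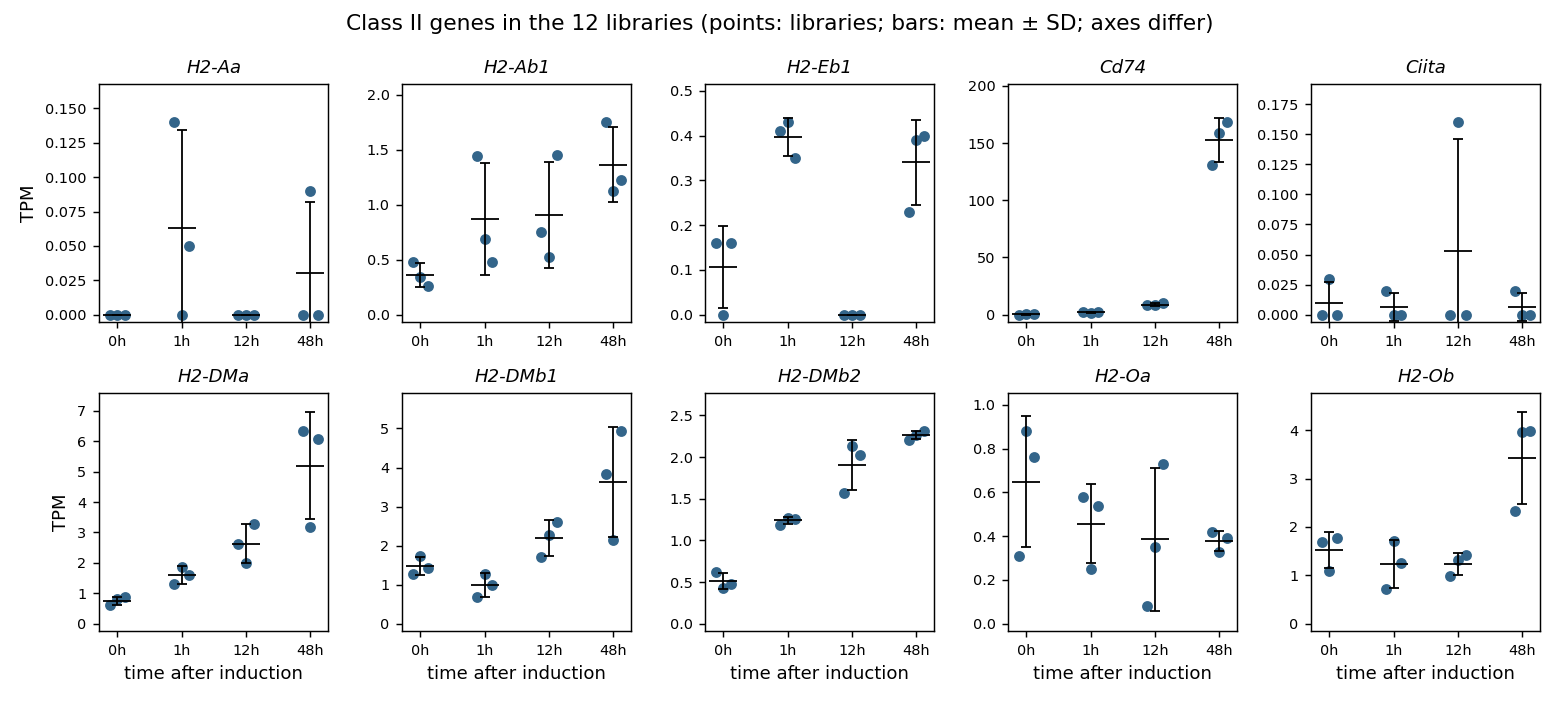
TPM of the 10 genes (1 panel each, axes differ) against time after induction, with points for the 3 libraries and bars for the mean ± SD. Cd74, H2-DMa and H2-DMb2 stood above 0h at every later time point, H2-Ob at 48h alone, and H2-Aa and Ciita did not exceed 0.16 TPM in any library.

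The order of the levels changed with time. At 0h H2-Ob (1.52 TPM) and H2-DMb1 (1.48) came first and overlapped, Cd74 was in place 7 of 10, and every neighbouring pair but H2-DMb1 and H2-DMa (0.760) overlapped. At 48h Cd74 came first with no overlap, followed by H2-DMa (5.19), H2-DMb1 (3.63) and H2-Ob (3.42), whose neighbours in this order overlapped. H2-DMb2 (2.26) and then H2-Ab1 (1.36) followed, each without overlap with the one before. Then came H2-Oa (0.380) and H2-Eb1 (0.340), which overlapped, and H2-Aa and Ciita at the end.

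Counted together, 7 of the 8 tested genes were called higher at 48h and none lower, against 15.9% of the 16415 genes tested called higher and 27.2% called lower. The median log2 fold change of the 8 was 1.43, and that of all genes was -0.18. At 12h 3 of the 8 (Cd74, H2-DMb2 and H2-DMa) were called higher, with 22.3% of all genes higher, 7.82% lower and medians of 0.79 and 0.34. At 1h 4 of the 8 (the same 3 with H2-Eb1) were called higher, with 24.1% of all genes higher, 1.41% lower and medians of 0.98 and 0.59. Between 12h and 48h 4 of the 8 (Cd74, H2-DMa, H2-Ob and H2-Eb1, the last against a group listed at 0) were called higher, with 4.1% of all genes higher and 31.7% lower. H2-DMa lost this call without 12h replicate 1 or 2 or 48h replicate 1 or 3 (adjusted p from 0.0644 to 0.118, limma), and H2-DMb1 gained one without 48h replicate 2 (adjusted p = 0.0315, limma). With a log2 fold change beyond 2 also required, Cd74 alone was called higher at 1h (3.59% of all genes) and at 12h (5.9%), Cd74 and H2-DMa at 48h (6.43%), and Cd74 and H2-Eb1 between 12h and 48h (1.91%). For H2-Eb1 this size (2.11) depends on the value added before the log, because its 12h group was listed at 0. It ranged from 0.42 to 5.09 over the alternatives. The 3 comparisons with 0h share its libraries.

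The scaling between libraries mattered for the early and the late step. Mean size factors by the median-of-ratios method were 0.930, 1.47, 1.18 and 0.699 from the first to the last time point, and that scaling brought the median of all genes at 1h from 0.59 to 0.006. After it, Cd74 alone was called higher at 1h (2.23, adjusted p = 0.0249, limma), and H2-DMb1 was called lower (-1.16, adjusted p = 0.0430, limma), with 5.41% of the 16212 genes then tested called higher and 5% lower. The 1h values of H2-DMb2, H2-DMa and H2-Eb1 became 0.55, 0.36 and 0.92 and no longer passed (adjusted p = 0.0851, 0.522 and 0.188, limma). At 48h against 0h 7 of 8 were called higher under either scaling, but the split of all genes turned round, with 25.2% now called higher and 22.3% lower, and medians of 1.83 for the 8 and 0.09 for all genes. Between 12h and 48h 7 of 8 were then called higher, H2-Ab1 (1.32), H2-DMb1 (1.37) and H2-DMb2 (0.97) being added, with 10.9% of all genes higher and 12.1% lower. With a log2 fold change beyond 2 also required, H2-DMb2 (2.38) and H2-Ab1 (2.08) joined Cd74 and H2-DMa at 48h (9.46% of all genes), and H2-Ob (2.08) joined Cd74 and H2-Eb1 between 12h and 48h (3.21%).

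**Figure D3:**
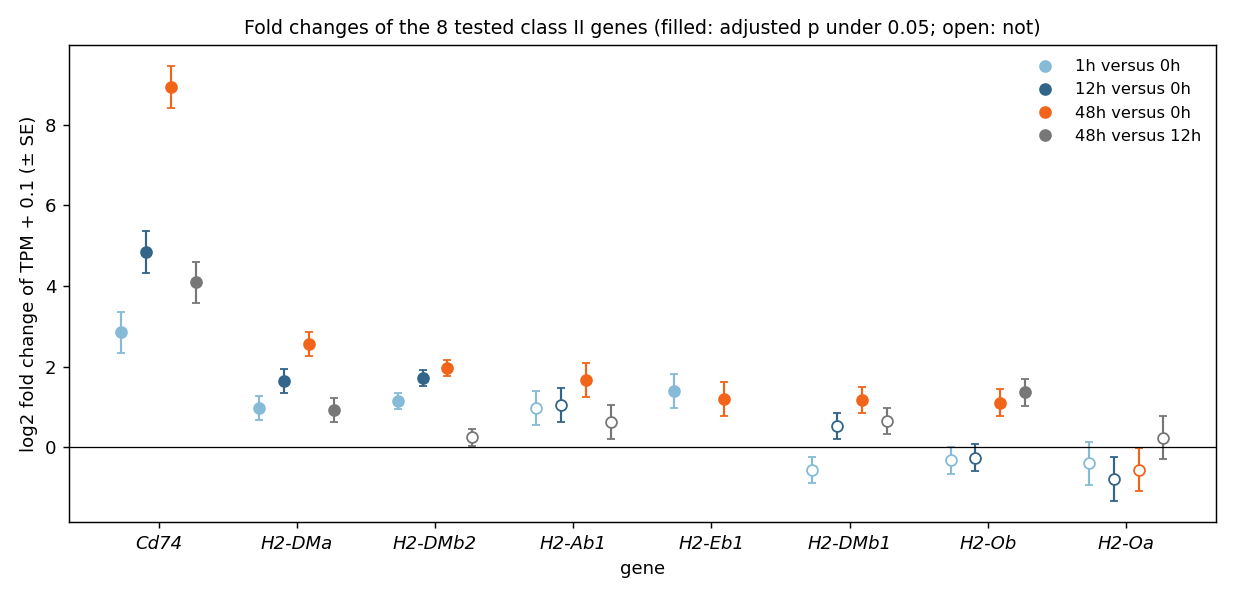
Log2 fold change of TPM + 0.1 with its standard error for the 8 tested genes in 4 comparisons, filled where the adjusted p is under 0.05 (H2-Eb1 is left out where its 12h group, listed at 0, enters). Cd74 at 48h (8.94) stood apart from H2-DMa (2.57), the next in size, and H2-Oa was not called in any comparison.

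RFX, NF-Y and CREB1 are the proteins that bind class II promoters. Of 7 genes for them none was called higher and 3 were called lower at 48h (median log2 fold change -0.55), where 15.9% of all genes were called higher and 27.2% lower (median -0.18). After median-of-ratios scaling 2 of them were called lower and none higher. The RFX subunits Rfx5, Rfxap and Rfxank had log2 fold changes of -0.03, -0.55 and -0.53 (adjusted p = 0.973, 0.102 and 0.500, limma). Rfx5 measured 1.67, 1.83 and 1.37 TPM at 0h and 1.18, 1.42 and 2.34 at 48h, so these libraries overlapped. The NF-Y subunits Nfyb (-1.68, adjusted p = 0.00470, limma), Nfyc (-1.48, adjusted p = 0.000669, limma) and Nfya (-0.73, adjusted p = 0.0250, limma) fell. After median-of-ratios scaling Nfya was no longer called (-0.33, adjusted p = 0.195, limma).

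Of 14 genes known to act on Ciita transcription or upstream of it, 9 were called higher and 1 lower at 48h, with a median of 1.48, against the same 15.9% and 27.2% of all genes. After median-of-ratios scaling 10 were called higher and 1 lower. The list mixes activators with inhibitors, so these counts give no net direction for Ciita. Irf1, an interferon-induced factor, measured 0.95, 1.38 and 1.32 TPM at 0h and 10.8, 10.8 and 11.4 at 48h. These libraries did not overlap, and Irf1 rose by 3.09 (adjusted p = 9.64e-07, limma). Socs1, an inhibitor of cytokine signalling, rose by 2.28 (adjusted p = 0.00185, limma). Spi1 (PU.1), a myeloid and B cell factor, was higher already at 1h and rose by 1.84 by 48h (adjusted p = 7.09e-06, limma). Pax5, the B cell identity factor, fell by 2.19 on the log2 scale (adjusted p = 1.79e-06, limma).

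Endosomal processing supplies the peptides and trims the invariant chain. Of 9 genes 6 were tested, of which 5 were called higher and 1 lower at 48h (median 1.96), with 15.9% of all genes called higher and 27.2% lower. Ctss (cathepsin S), which makes the final cut in the invariant chain, measured 7.07, 7.66 and 5.50 TPM at 0h, 5.74, 5.36 and 7.05 at 12h, and 30.8, 35.9 and 32.0 at 48h. Its rise, 2.28 against 0h (adjusted p = 1.30e-06, limma), thus lay between 12h and 48h. Ctsd rose by 4.44 (adjusted p = 1.84e-08, limma) and Ctsb by 4.07 (adjusted p = 2.67e-07, limma). Ifi30, a thiol reductase that opens disulfide bonds of antigens, went the other way, from 24.8, 25.2 and 25.2 TPM at 0h to 0.94, 1.42 and 1.86 at 48h (log2 fold change -4.11, adjusted p = 1.67e-07, limma). Ctsl, Ctsh and Ctsf stayed under the filter.

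Of the 4 tested genes for traffic and turnover 3 were called higher and 1 lower at 48h, and the shares of all genes given above (15.9% and 27.2%) apply to each list here. March1, the ubiquitin ligase that removes class II from the surface, measured 0.19, 0.23 and 0.15 TPM at 0h and 6.23, 7.24 and 5.65 at 48h (log2 fold change 4.48, adjusted p = 2.36e-08, limma). Cd44, a partner of Cd74 at the surface, rose by 2.34 (adjusted p = 1.19e-06, limma) and March8, a relative of March1, by 1.59 (adjusted p = 0.0318, limma). Mif, the cytokine that binds Cd74, fell by 2.96 on the log2 scale (adjusted p = 3.76e-06, limma), from 119, 111 and 127 TPM to 12.0, 11.9 and 24.9. Of 6 genes listed under co-stimulation 4 were tested, and Cd86 and Pdcd1lg2 stayed under the filter. All 4 were called higher, led by Cd80 (4.82), Cd40 (3.81) and Cd274 (2.74), with means at 48h of 3.09, 2.15 and 2.15 TPM. Of these, Cd274 (PD-L1) codes for an inhibitory ligand and not for a co-stimulator. Of 6 tested neighbours in the class II region 2 were called higher, Tap1 (1.60) and Tapbp (1.60), which serve class I, and the median of that list was 0.17. Cd83, Ctsf and the pseudogene H2-Ea-ps were listed at 0 in all libraries.

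The genes whose pattern over the 12 libraries was most like that of Cd74, by Pearson's r of log2(TPM + 0.1) among 9326 genes with a mean of at least 1 TPM, were Gm7609 (0.976), Mpeg1 (0.972), Ctsb (0.971), Coro2a (0.971) and Rnf114 (0.971). The sum of the 3 chains was most alike to Birc3 (0.925), Rnf103 (0.899), Gla (0.898), Gm49359 (0.897) and Gm48177 (0.891). These values are a description, since the libraries share 4 time points. For Ciita the closest, Gm24456 (0.939), Gm25177 (0.752), Gm22886 (0.744), Ythdc2 (0.726) and Tmem241 (0.717), rest on 1 library with 0.16 TPM and levels near 0.

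Fewer promoter contacts were listed for these genes at 48h than at 0h. Contacts are interactions of a captured fragment that holds a transcript start of the gene, from lists that merge 2 replicates, so they have no replicate error. The 10 genes together had 127, 133, 105 and 78 contacts from the first to the last time point, while the median of 23193 genes with a captured fragment was 5 at each time point and the whole lists held 138769, 137836, 131598 and 144072 interactions. At 48h 9 of the 10 genes had fewer contacts than at 0h and H2-DMb1 had 4 at both. Of all 19711 genes with a contact at 0h, 48.6% had fewer at 48h. With only the fragments that hold an annotated gene start, the totals of these genes were 110, 107, 87 and 66. H2-Ab1 has no such fragment, and Ciita then had 2 contacts at every time point, so its drop rests on its other fragment. The H2 genes are neighbours and some contact each other, so a contact can count for both genes. The 10 are therefore not independent cases. Some drops were small, such as 13 to 12 for H2-Ab1 and 2 to 1 for H2-Eb1. The 0h list is scored by CHiCAGO (5 or more) and the others carry whole numbers of a unit that is not given in the sources used here, so a list's threshold may differ between 0h and later.

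Cd74 had 21, 28, 15 and 10 contacts in this order, so the number listed was lowest where its RNA was highest. All 10 contacts of 48h were also listed at 0h (47.6% of the 0h contacts). The Cd74 fragment (chromosome 18, 60780474 to 60808065) contacted the fragment that holds a start of Csf1r, the CSF-1 receptor gene, 306 kb downstream between fragment centres, at all 4 time points. Of the contacts 100 to 200 kb downstream, 9, 12, 4 and 3 were listed.

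Among the captured fragments of the 8 H2 genes on chromosome 17, that of H2-DMa had the most contacts (43, 28, 30 and 25 from 0h to 48h). It also holds a start of Brd2, so the contacts cannot be assigned to either gene. H2-Ob had 23, 19, 20 and 16, and H2-Ab1, whose captured fragment holds a transcript start but not the annotated gene start, had 13, 23, 18 and 12. H2-Aa, with nearly no RNA, had 7, 8, 7 and 4 contacts. H2-DMb2 had 6, 11, 6 and 4, H2-Oa 8, 10, 7 and 4, and H2-Eb1 2, 2, 3 and 1. Ciita, with 2 captured fragments, had 6, 5, 3 and 2. Of these, the fragment with the annotated gene start had 2 at every time point. The other had 4, 3, 1 and 0. The H2-DMa and H2-Ob fragments contacted each other at all 4 time points, and the H2-DMa fragment contacted those of H2-DMb1, H2-DMb2 and H2-Oa at 0h, 12h and 48h.

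**Figure D4:**
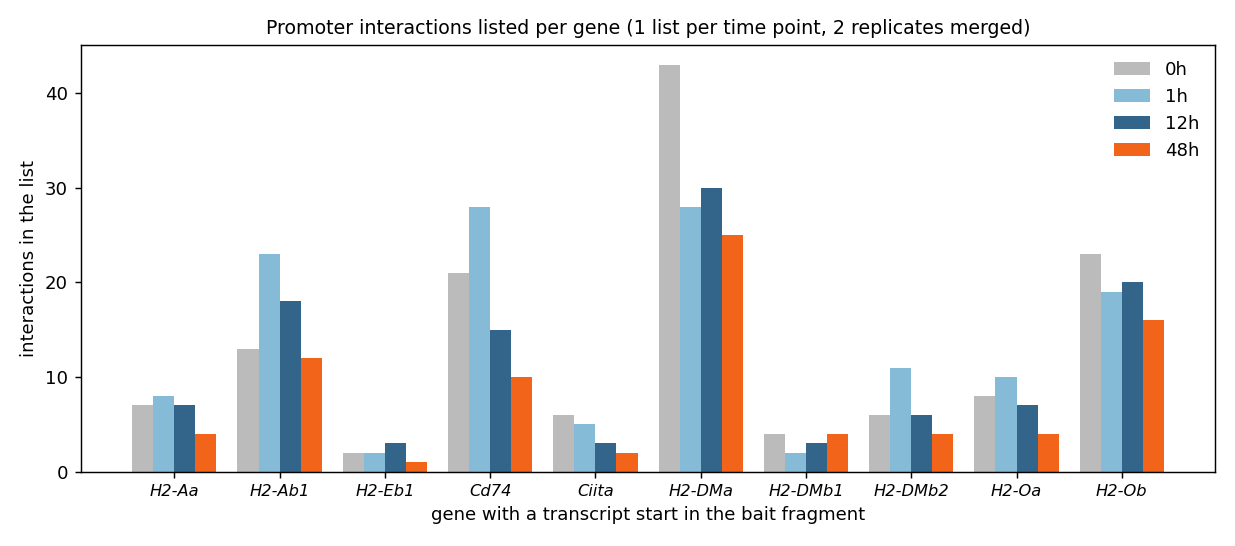
Number of listed PCHi-C interactions (y axis) of the captured fragments that hold a transcript start of each gene (x axis), with 1 bar per time point and no replicate error. Cd74 went from 21 at 0h to 10 at 48h, and H2-DMb1 had 4 at both.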

How the data were processed

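RNA-seq of 12 libraries and PCHi-C lists of 4 time points were analysed, and Hi-C was not used here. Per the labels, the authors trimmed reads with Trim Galore 0.6.2, mapped them to mm10 with HISAT2 2.1.0 and quantified them with RSEM; the deposited unit is TPM. The deposited 0h list gives a CHiCAGO score, and the deposited values of the other lists were not used. The strain of origin of C10 is not given in the sources used here, and reads were mapped to the alleles of the reference genome.

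Genes with a mean of at least 0.1 TPM (16415) entered limma 3.58.1 (R 4.3.3) (eBayes with trend, two-sided, Benjamini-Hochberg adjustment over all genes tested); other steps used Python 3.11.15. Fold changes on log2(TPM + 0.1) understate those of low genes. The fit was tested on simulated data for 48h against 0h alone. The changes planted there were all of the same size and only in genes with a mean of at least 1 TPM. That test therefore does not cover calls of genes near 0 TPM. Named genes were the 10 genes, up to 3 called genes in each direction per list by size at 48h, the defining genes of a list, and the 5 most alike in pattern; the values of 1 gene that this rule names are not reported here. Members and lists were chosen with earlier results of these data known. Gene positions are from GENCODE M21. Alternatives varied the pseudocount, filter, scaling, trend, libraries, replicate block and thresholds.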

Additional observations from a re-analysis of the deposited data

How the results depend on the processing

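Over 660 alternative values for 32 gene comparisons, 616 stayed on their side of the threshold, 36 lost a call and 8 gained one. None reversed as a called value. Some alternatives left out a library of a time point not compared. In these the fold change stayed the same and only the adjusted p could move, so the total overstates the stability. The number of class II genes called was 4, 3 and 7 at the 3 time points against 0h, and 4 for 48h against 12h. With median-of-ratios scaling it became 2 at 1h (1 higher, 1 lower) and 7 at 48h against 12h, and without the 20 most abundant genes 1 at 1h. With a log2 fold change beyond 2 it was 1, 1, 2 and 2. Leaving out 1 library at a time gave 2 to 4 at 1h, 3 to 4 at 12h, 5 to 7 at 48h and 3 to 5 at 48h against 12h.

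Of the genes in the pathway lists, 13 (11 higher, 2 lower), 20 (16 and 4), 29 (23 and 6) and 20 (13 and 7) were called in the same order of comparisons, with 10 to 13, 18 to 20, 26 to 30 and 16 to 20 when 1 library was left out. A log2 fold change beyond 2 gave 0, 9, 14 and 6, one beyond 1 gave 8 at 1h, and rescaling without the 20 most abundant genes gave 7 at 1h (3 higher, 4 lower). Median-of-ratios scaling turned the split round at 1h (3 higher, 6 lower) and gave 15 and 8, 25 and 5, and 23 and 2 in the other comparisons. The alternatives for these lists and for the level and ratio of Cd74 were chosen after seeing the data. Mean Cd74 at 48h was 153 TPM, 218 with median-of-ratios scaling, 212 without the 20 most abundant genes, and 145 to 163 when 1 library was left out. Its ratio to the 0h mean, 509, was 339 to 803 when 1 library was left out. Contacts of the 10 genes at 0h numbered 127, and 27 with a score of 10 or more.

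With the replicate number as a block, 4, 3, 6 and 4 class II genes were called, H2-Eb1 at 48h being lost (adjusted p = 0.0573, limma). The numbers are not shown to pair the libraries: of 18 same-number pairs 7 had a correlation of deviations over 0.1 (-0.01 to 0.26), and 7 of 12 libraries correlated best with their own number. The libraries of replicate 3 stood apart from the others: 5 of their 6 pairs were over 0.1 (2 of 6 for replicate 1 and 0 of 6 for replicate 2). Their correlations with replicates 1 and 2 were all below 0 (-0.18 to -0.006). Deviations within a time point sum to 0, so these negative values are partly built in. The main model has no term for replicate 3. Depth cannot be judged from TPM, which limits the values near 0.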
